A study of Mus musculus with 6 samples.

Results

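Transcripts of genes that build and serve the photoreceptor's connecting cilium were measured in retinas of Vldlr knockout mice and wild-type mice. A list of 35 genes was taken by symbol, and every array probe annotated with one of those symbols was included. It holds subunits of the BBSome, the chaperonins that assemble it and the GTPase that recruits it, subunits of intraflagellar transport (IFT) complexes B and A, IFT motors, proteins of the connecting cilium and transition zone, and carriers of lipid-modified proteins together with Tulp1. Of the 35 genes, 33 had a probe, of 19057 named genes on the array, and 30 had a probe that could be tested, of 11089 named genes. The 33 genes carried 84 probes, of which 58 were tested. Arl6 and Cep290 had no probe under these symbols in the annotation used and are not analysed here.

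The outer segment of a rod or cone is a modified cilium joined to the cell body by a narrow connecting cilium. Its membrane and phototransduction proteins pass through that bridge. Routes include transport along microtubules by IFT particles (complex B with kinesin-2 outward, complex A with dynein back), sorting by the BBSome and carriage of lipid-modified cargo by solubilizing carriers. Inherited loss of many of these genes causes photoreceptor degeneration, often together with disease of other ciliated organs.

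Total RNA from retina was hybridised to Illumina mouse BeadChips, 1 array per sample, with 3 samples of genotype Vldlr KO and 3 of genotype wild-type (source name Jax WT). Vldlr codes for the receptor of very low density lipoprotein, and the groups were compared to find which transcripts of the retina depend on its genotype. Both groups carry the same background strain entry, JAX, which names no strain. The labels give no age, sex, treatment or description of the allele, and do not tell whether each array of a group stands for its own animal, so the p-values cover only how these samples vary, and that spread may be technical. KO1 to KO3 and WT1 to WT3 below are the arrays of each group, and the numbers only name them.

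On each array, 18710 to 20974 of 45281 probes had a detection p under 0.05, and 19921 probes met this on at least 3 of the 6 arrays and were tested with limma. Levels are log2 intensities after background correction and quantile normalization, changes are Vldlr KO minus wild-type on that log2 scale, and a probe was called at a Benjamini-Hochberg adjusted p under 0.05. The number of arrays limits the precision. The brightest Vldlr probe read 10.16, 10.22 and 10.41 on the knockout arrays, against 11.31, 11.33 and 11.68 on the wild-type arrays. It fell by 1.17 (SE 0.179, adjusted p = 0.00946), to 44.3% of the level in wild-type, and the call was lost without KO1 (adjusted p = 0.0699) or KO2 (adjusted p = 0.0719). Of the other 4 tested Vldlr probes, 2 were also called, at -1.22 and -1.26, and 2 dim ones were not, at 0.23 and 0.02. The positions of the probes in the transcript were not analysed here. Rod markers, which identify the cells that hold most of these cilia, summed to 128975 to 159198 intensity units in knockout and 126825 to 138238 in wild-type retinas over 19 tested genes of a list of 23, so the groups overlapped. The sum weighs the brightest probes most, and the brightest, of Gnat1, read the same 14.94 on KO1 and on all wild-type arrays. Of these rod genes Guca1a was called higher, Guca1b lower and 17 were not called. Cone markers summed to 21842 to 23256 units in knockout and 22132 to 23643 in wild-type retinas, with Arr3 and Gnat2 called higher and Pde6c lower among 11 tested genes. Markers were read by the brightest probe of each gene, by which 0.667% of all named genes were called higher and 1.62% lower. In bulk retina, fewer cells of a type and less RNA per cell cannot be told apart.

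Of the 58 tested probes, 0 were called higher in Vldlr KO retinas, where 0.653% of all tested probes were called higher, and 2 were called lower, where 1.53% of all tested probes were. The 2 probes belong to Arl3, a small GTPase that releases lipid-modified cargo inside the cilium, and Mkks (also BBS6), a chaperonin-like protein that helps to assemble the BBSome. The Mkks probe qualified for testing only through the wild-type arrays, where it was high. The other 56 probes were not called, with changes between -0.90 and 0.84. The brightest probe of each of the 30 genes gave 0 calls in either direction (smallest adjusted p = 0.274), where 0.667% of 11089 named genes were called higher and 1.62% lower by their brightest probe. On the brightest probes 16 of 30 genes had a positive change, and their median change was 0.05, against 0.01 over all named genes. Over the tested probes 29 changes were positive and 29 negative, with a median of -0.0027 against 0.026 over all tested probes. At an unadjusted p under 0.05 there were 8 of 58 probes (13.8%), 3 with a positive and 5 with a negative change, against 11.7% of all tested probes.

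**Figure D1:**
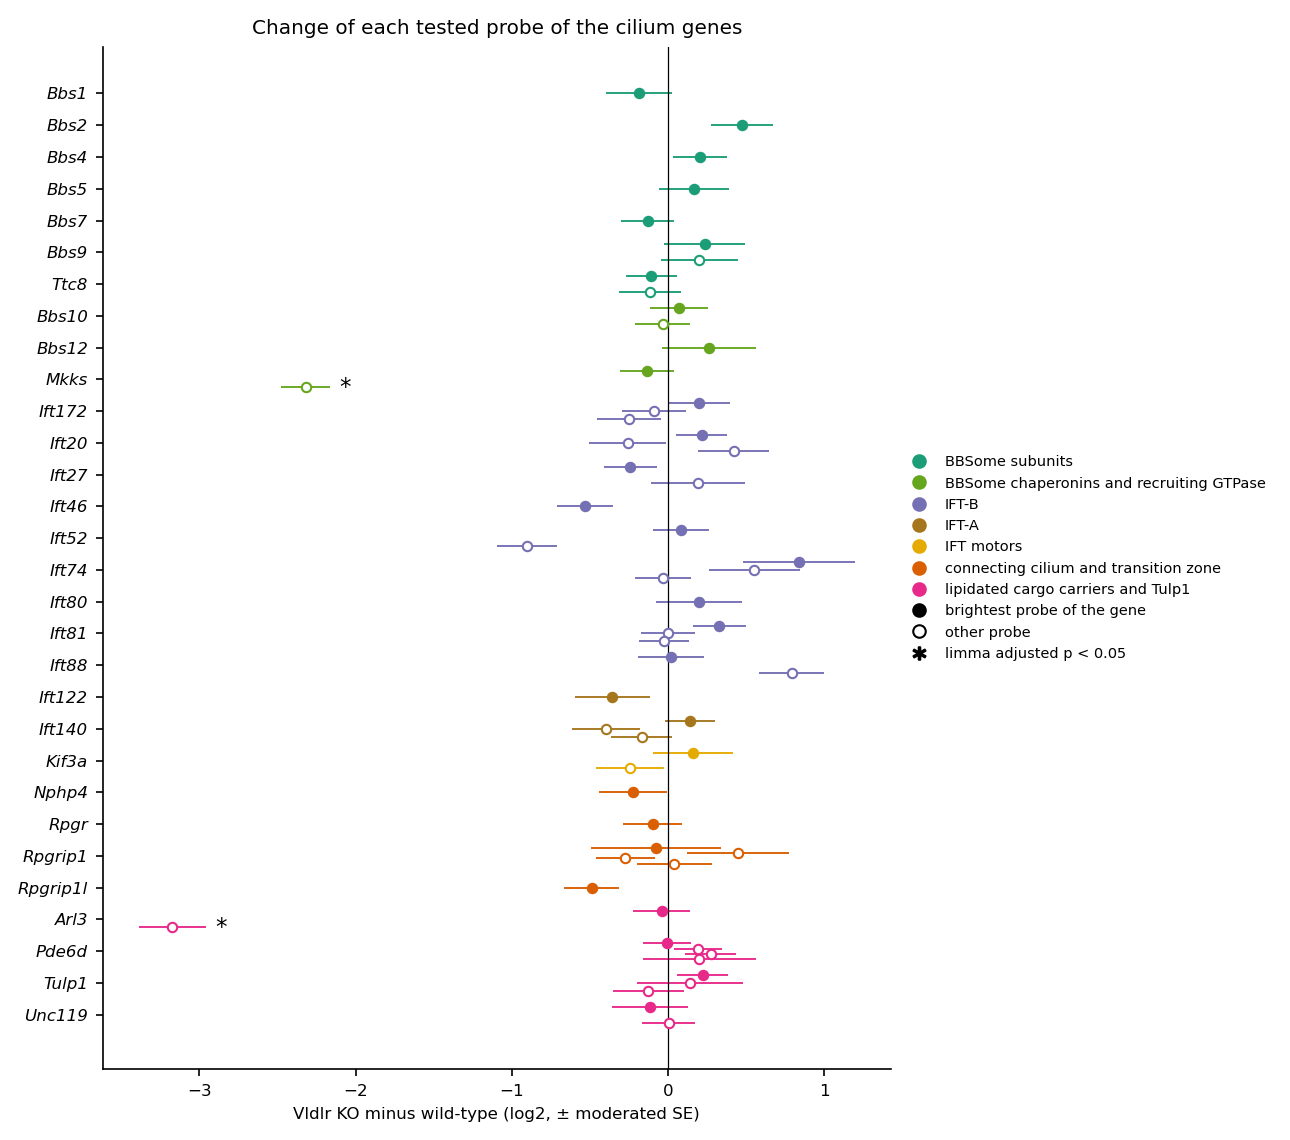
Change of each of the 58 tested probes (Vldlr KO minus wild-type, log2, x axis) for the 30 cilium genes (y axis), grouped by role through colour; filled points are the brightest probe of a gene, open points its other probes, bars the moderated SE and asterisks an adjusted p under 0.05. The 2 called probes, 1 of Arl3 at -3.17 and 1 of Mkks at -2.32, are both open points, and the filled points of the same genes lie at -0.04 and -0.14.

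Arl3 is the GTPase that, bound to GTP, makes the carriers Unc119 and Pde6d let go of their cargo, among it phosphodiesterase and rod transducin. Its dimmer probe (ILMN_1238801) read 5.97, 5.89 and 6.36 on the Vldlr KO arrays, against 9.19, 8.97 and 9.58 on the wild-type arrays. Before any normalization the same probe had raw intensities between 96.9 and 151.5 in knockout samples and of 580.7, 595.5 and 792.3 in wild-type samples. The groups lay far apart, and the signal was above background on all 6 arrays. The probe averaged 6.07 ± 0.249 in Vldlr KO and 9.25 ± 0.309 in wild-type retinas (SD, n = 3 each), and it fell by 3.17 (SE 0.217, adjusted p = 0.000118), a 9.02-fold lower signal that stayed past the test under all 18 alternatives tried that held this probe (changes of -3.50 to -2.42). Among them, a looser threshold and an added 1.5-fold limit could not have removed the call. The brightest Arl3 probe (ILMN_2786860) read 11.66, 11.68 and 11.85 in Vldlr KO, against 11.58, 11.67 and 12.04 in wild-type retinas. On that probe the groups overlapped and the change was -0.04 (SE 0.184, adjusted p = 0.954), with a 95% interval of -0.46 to 0.38. The probes of Arl3 therefore gave different answers, and which parts of the transcript each of them reads was not analysed here. Whether the groups differ in sequence under any probe of the list was not analysed either.

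Mkks belongs with Bbs10 and Bbs12 to the chaperonin-like proteins of the BBSome. Its dimmer tested probe (ILMN_2814350) read 4.40, 4.55 and 4.60 on the Vldlr KO arrays, against 6.79, 6.83 and 6.88 on the wild-type arrays. It was not well above background on any knockout array and above it on all 3 wild-type arrays, with raw intensities of 58.6, 61.2 and 72.5 in knockout and of 148.2, 166.3 and 171.5 in wild-type samples. The probe thus qualified for testing only through the group where it was high. With no filter on dim probes it kept its call (limma adjusted p = 0.000427). The measured means were 4.52 ± 0.104 in Vldlr KO and 6.84 ± 0.0467 in wild-type retinas (SD, n = 3 each). The probe fell by 2.32 (SE 0.158, adjusted p = 0.000118), and taking the lowest signal of any detected probe on each knockout array as the limit, its measured mean was at least 4.16-fold lower. The probe was past the test under all 18 alternatives that held it, with changes of -2.58 to -1.24. Here too a looser threshold and an added 1.5-fold limit could not have removed the call. The brightest Mkks probe (ILMN_1257332) read 9.43, 9.34 and 9.29 in Vldlr KO, against 9.58, 9.27 and 9.62 in wild-type retinas. Its change was -0.14 (SE 0.172, adjusted p = 0.799, 95% interval -0.53 to 0.25), so the brighter probe showed overlapping groups where the dimmer one showed none. The other Mkks probe was detected on 0 arrays.

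Ift52, a core subunit of complex B, came closest to the threshold among the probes that were not called. Its dimmer probe read 8.06, 7.96 and 8.52 on the Vldlr KO arrays, against 9.02, 9.08 and 9.15 on the wild-type arrays. All knockout values lay below all wild-type values, the change was -0.90 (SE 0.193, adjusted p = 0.0540), and the probe passed the same threshold under 6 alternatives, among them leaving out KO3, where the change was -1.09 (adjusted p = 0.0306). Over all 18 alternatives that held it, its adjusted p ran from 0.00396 to 0.431. The brightest Ift52 probe read 9.18, 9.12 and 9.20 in Vldlr KO, against 8.96, 8.92 and 9.36 in wild-type retinas. Its groups overlapped, with a change of 0.09 (SE 0.179, adjusted p = 0.889).

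**Figure D2:**
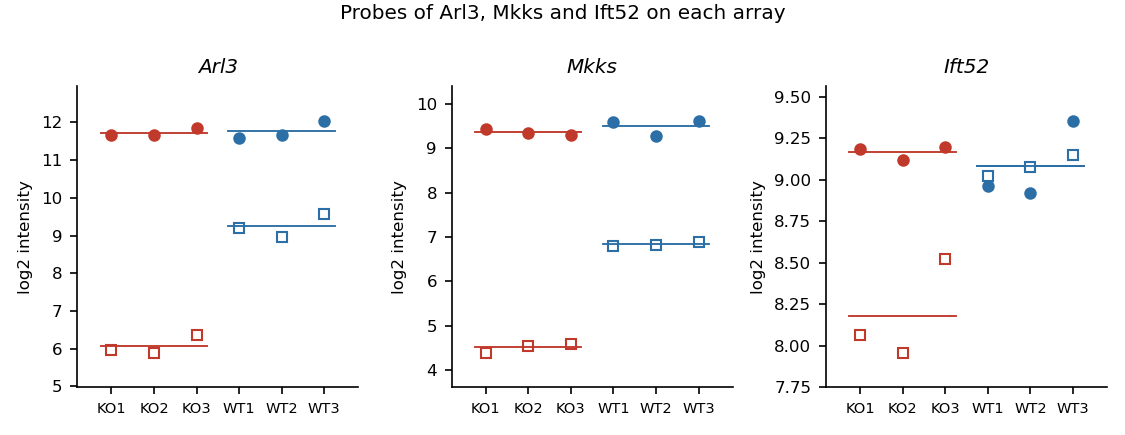
Log2 intensity (y axis) of the tested probes of Arl3, Mkks and Ift52 on each array (x axis), with Vldlr KO in red and wild-type in blue, filled circles for the brightest probe, open squares for the other probe and lines for the group means. In each gene the filled circles of both groups overlap and the open squares do not, with means of 6.07 and 9.25 for Arl3, 4.52 and 6.84 for Mkks and 8.18 and 9.08 for Ift52 in Vldlr KO and wild-type retinas.

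Probes of a gene were also compared with each other. Of the 30 genes, 18 had at least 2 tested probes, and in 13 of them (72.2%) the probes' changes differed in sign, against 45.9% of all 4146 named genes with at least 2 tested probes, with the number of probes per gene not matched. The median distance between the highest and lowest change of a gene was 0.44 in these 18 genes and 0.29 in the 4146. A distance over 1 occurred in 2 of 18 genes (11.1%), Arl3 and Mkks, against 4.51% of the 4146. A called probe beside a probe of the same gene that moved by less than 0.25 occurred in the same 2 genes, against 69 of the 4146 (1.66%). These genes were looked up after their values were seen, and no test was made of the shares.

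**Figure D3:**
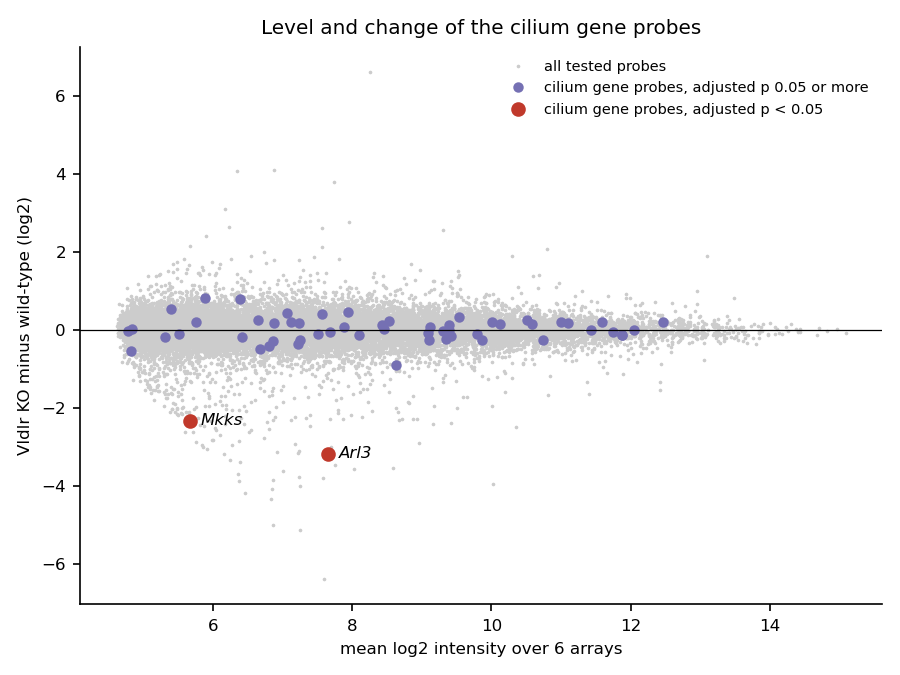
Change (Vldlr KO minus wild-type, log2, y axis) against mean log2 intensity over the 6 arrays (x axis) for all 19921 tested probes in grey, the cilium gene probes that were not called in purple and the 2 that were called in red. The purple points lie between -0.90 and 0.84 and the red ones, of Mkks and Arl3, at -2.32 and -3.17.

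What the list shares beside function was looked for in the promoters, taken from RefSeq on GRCm38.p6 as the 250 bases before and 50 after each gene's start. Many ciliary genes are bound by RFX transcription factors, whose recognition element, the X-box, is built from 2 copies of a short arm. One arm, GTTGCC, was searched on both strands (GGCAAC on the other), and 12 of the 32 matched members held it (37.5%), against 14.1% of 27025 genes. Of the other cilium genes listed below, 23 of 52 held it (44.2%). A longer form, GTTNCCAT on either strand, which overlaps the same element, was in 0 of 32 members, in 7 of 52 other cilium genes (13.5%) and in 5.12% of all genes. The 12 members with the short arm were Bbs1, Bbs5, Bbs7, Ift27, Ift57, Ift88, Ift140, Ift172, Kif3a, Kif17, Nphp4 and Pde6d, and in 6 of them the match lay wholly before the start. Upstream stretches of 56 bases are given for one gene each of the BBSome, complex B, complex A and the motors, 5′ to 3′ on the gene's strand with the arm in capitals, from chr3:36613480-36613535 (minus strand) for Bbs7, chr15:78174082-78174137 (minus) for Ift27, chr17:25015952-25016007 (plus) for Ift140 and chr11:53567246-53567301 (plus) for Kif3a.
Bbs7: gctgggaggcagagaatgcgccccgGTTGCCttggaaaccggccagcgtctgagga
Ift27: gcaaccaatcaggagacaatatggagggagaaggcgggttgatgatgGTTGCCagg
Ift140: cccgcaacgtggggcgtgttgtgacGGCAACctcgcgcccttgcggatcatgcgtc
Kif3a: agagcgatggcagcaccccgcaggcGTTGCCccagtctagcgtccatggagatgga
These letters are a description of the windows, not of binding. Of the 12 genes with the arm 10 were tested, and the changes of their brightest probes ran from -0.24 to 0.20 with 0 called. Arl3, Mkks and Ift52 were not among the 12 members with the arm. Of the 35 members, 32 had a promoter window to search.

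The BBSome, a coat-like complex that moves membrane proteins out of and into cilia, gave 9 tested probes of 7 genes, and 0 were called. Their changes ran from -0.19 (Bbs1) to 0.47 (Bbs2). Bbs2, a subunit of its core, read 7.93, 8.25 and 8.38 on the Vldlr KO arrays, against 7.96, 7.53 and 7.64 on the wild-type arrays. KO1 and WT1 read almost alike and the other arrays parted, for a change of 0.47 (SE 0.197, adjusted p = 0.395). Bbs4, which the complex takes up late in assembly, read 10.95, 11.03 and 11.33 in Vldlr KO, against 10.86, 10.90 and 10.93 in wild-type retinas. The groups did not overlap, but the change of 0.21 was not past the test (SE 0.172, adjusted p = 0.689). The remaining subunits, Bbs5, Bbs7, Bbs9 and Ttc8 (BBS8), had changes between -0.13 and 0.24, and the brightest probe of Bbs7 read 11.91, 11.90 and 11.61 in Vldlr KO, against 11.88, 12.06 and 11.88 in wild-type retinas. The chaperonin-like partners of Mkks had overlapping groups: Bbs10 probes changed by 0.07 and -0.03, and the Bbs12 probe by 0.26 (SE 0.301, adjusted p = 0.779), with WT3 at 5.86 and the other arrays between 6.47 and 7.15.

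Complex B, the larger IFT particle, which binds kinesin-2 and carries tubulin and membrane cargo toward the tip, gave 20 tested probes of 9 genes, with 0 called, 12 positive and 8 negative changes. Ift46, which links the particle to ciliary cargo, had 1 probe, which read 4.63, 4.66 and 4.38 on the Vldlr KO arrays, against 5.21, 4.88 and 5.17 on the wild-type arrays. It was not well above background on any knockout array and was above it on all 3 wild-type arrays, and it qualified for testing only through the latter. The change was -0.53 (SE 0.179, adjusted p = 0.274), at least 1.24-fold lower by the detection limit, and not past the test. Ift88, the core subunit whose hypomorphic mouse allele disturbs outer segment assembly, was singled out after its values were seen. Its dimmer probe read 6.78, 6.65 and 6.93 in Vldlr KO, against 6.20, 6.18 and 5.60 in wild-type retinas. Those groups did not overlap, with a change of 0.79 (SE 0.209, adjusted p = 0.127), whereas its brightest probe read 8.61, 8.68 and 8.09 in Vldlr KO, against 8.62, 8.42 and 8.28 in wild-type retinas, a change of 0.02 (adjusted p = 0.982).

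Ift74 and Ift81 form the pair that binds tubulin. The brightest Ift74 probe read 6.16, 5.79 and 6.97 on the Vldlr KO arrays, against 5.50, 4.87 and 6.04 on the wild-type arrays. KO3 and WT3 were the highest of their groups, KO2 lay below WT3, and the change of 0.84 was not past the test (SE 0.360, adjusted p = 0.410). It was 0.49 without KO3 and 0.53 without WT2, and 1.12 without WT3. The other Ift74 probes changed by 0.55 (adjusted p = 0.502) and -0.03 (adjusted p = 0.964), the last being near background and detected on 1 knockout and 2 wild-type arrays. For Ift81 the brightest probe read 9.75, 9.53 and 9.82 in Vldlr KO, against 9.45, 9.43 and 9.22 in wild-type retinas. Its groups did not overlap (change 0.33, SE 0.171, adjusted p = 0.496), and the other Ift81 probes changed by 0.00087 and -0.02.

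Ift20, a complex B subunit that also sits at the Golgi and takes part in sorting toward the cilium, had 3 tested probes. The brightest read 11.64, 11.72 and 11.74 in Vldlr KO, against 11.66, 11.35 and 11.45 in wild-type retinas (change 0.22, SE 0.165, adjusted p = 0.660). The next read 10.89, 10.72 and 10.24 in Vldlr KO, against 10.69, 10.64 and 11.30 in wild-type retinas, with KO3 the lowest and WT3 the highest of the arrays (change -0.26, SE 0.247, adjusted p = 0.729). On the dimmest, 7.78, 7.74 and 7.81 in Vldlr KO lay above 7.73, 7.45 and 6.89 in wild-type retinas (change 0.42, SE 0.227, adjusted p = 0.511), and the change was 0.19 without WT3 and 0.61 without WT1. These probes differed in sign, and WT3 stood at an end of the range on the lower 2 of them. The remaining tested complex B genes, Ift27, Ift80 and Ift172, had changes between -0.25 and 0.20. Ift57 had 4 probes, none detected on more than 2 arrays, and was not tested.

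Complex A, which works with dynein-2 in the return transport and admits some membrane proteins to the cilium, gave 4 tested probes of 2 genes, with 0 called. The brightest probe of Ift140, a core subunit, read 8.55, 8.50 and 8.45 on the Vldlr KO arrays, against 8.36, 8.48 and 8.23 on the wild-type arrays, a change of 0.14 (SE 0.161, adjusted p = 0.779). Its next probe read 6.45, 6.70 and 6.70 in Vldlr KO, against 6.69, 7.42 and 6.92 in wild-type retinas (change -0.39, SE 0.217, adjusted p = 0.522), and the dimmest read 5.34, 5.28 and 5.07 in Vldlr KO, against 5.62, 5.09 and 5.50 in wild-type retinas (change -0.17, SE 0.195, adjusted p = 0.781). The groups overlapped on all 3 of these probes. Ift122, also a core subunit, changed by -0.36 (SE 0.238, adjusted p = 0.606), with WT2 at 7.83 and the other arrays between 6.90 and 7.33.

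Of the IFT motors, Kif3a, a motor subunit of heterotrimeric kinesin-2, was tested and Kif17, a homodimeric kinesin-2, was not, since its 3 probes were detected on 0 arrays. The brightest Kif3a probe read 10.61, 10.48 and 10.89 on the Vldlr KO arrays, against 10.45, 10.05 and 11.01 on the wild-type arrays (change 0.16, SE 0.255, adjusted p = 0.849). The other tested probe read 9.83, 9.70 and 9.72 in Vldlr KO, against 9.66, 9.90 and 10.43 in wild-type retinas (change -0.24, SE 0.218, adjusted p = 0.709). WT3 was the highest array on both probes, and on both the wild-type values spanned those of the knockout.

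Genes of the connecting cilium and the transition zone gave 7 tested probes of 4 genes, with 0 called, 2 positive and 5 negative changes. Rpgrip1l, a scaffold of the transition zone, read 6.48, 6.56 and 6.23 on the Vldlr KO arrays, against 6.76, 6.94 and 7.04 on the wild-type arrays. The groups did not overlap, and the change of -0.49 was not past the test (SE 0.175, adjusted p = 0.309). Rpgrip1, which tethers Rpgr at the connecting cilium, had its brightest probe at 9.09, 9.07 and 8.99 in Vldlr KO, against 8.59, 8.52 and 10.27 in wild-type retinas. WT3 stood more than a log2 unit above every other array, and the change was -0.07 (SE 0.415, adjusted p = 0.963), or 0.50 without WT3 (adjusted p = 0.203).

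The next Rpgrip1 probe showed the same array apart, at 7.19, 7.26 and 7.42 in Vldlr KO and 6.52, 6.33 and 7.68 in wild-type retinas. Its change was 0.45 (SE 0.326, adjusted p = 0.639) with all arrays and 0.88 (adjusted p = 0.0373) without WT3, the only call of a higher cilium probe under any alternative tried. One dimmer Rpgrip1 probe did not follow: it read 6.78, 6.66 and 6.72 in Vldlr KO, against 7.17, 7.15 and 6.67 in wild-type retinas, a change of -0.27. The last was near background, detected on 2 knockout arrays and 1 wild-type array. It read 4.93, 4.48 and 5.17 in Vldlr KO, against 4.63, 4.63 and 5.20 in wild-type retinas, and changed by 0.04. WT3 was its highest array too, by a small margin over KO3. Rpgr, a GTPase regulator of the connecting cilium whose human gene is a common cause of X-linked retinitis pigmentosa, changed by -0.10 (SE 0.187, adjusted p = 0.877). Nphp4, a transition zone protein, changed by -0.22 (SE 0.216, adjusted p = 0.736).

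**Figure D4:**
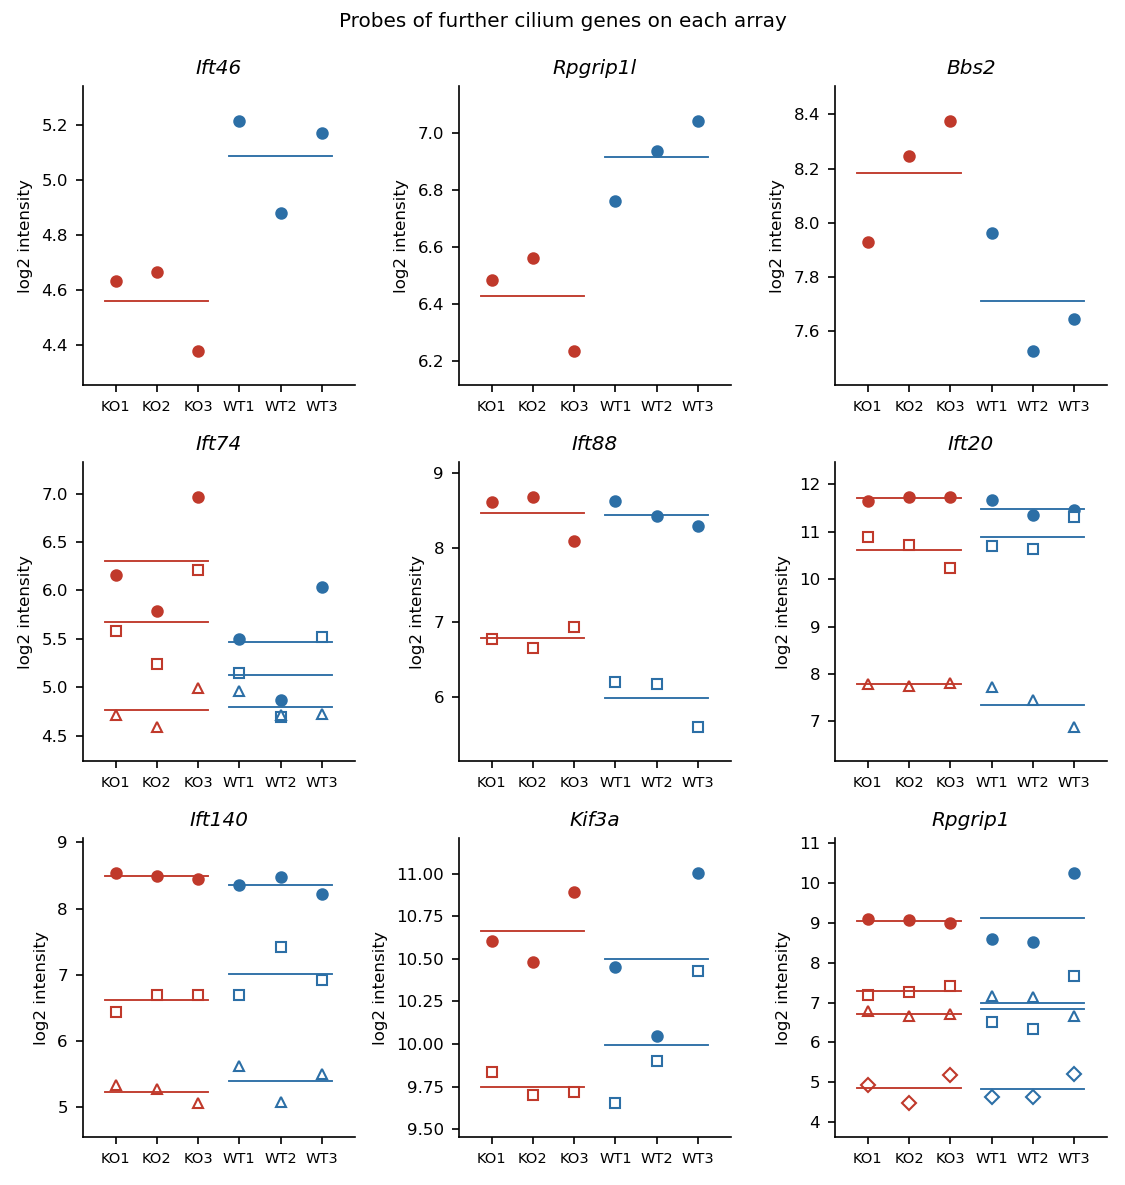
Log2 intensity (y axis) of the tested probes of 9 further cilium genes on each array (x axis), with Vldlr KO in red and wild-type in blue, filled circles for the brightest probe, open squares, triangles and diamonds for the next ones and lines for the group means. Ift46, Rpgrip1l, the dimmer Ift88 probe and the dimmest Ift20 probe show groups that do not overlap, and WT3 stands above the other arrays on the 2 brightest Rpgrip1 probes.

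Beside Arl3, no carrier of lipid-modified cargo had a called probe. Pde6d, a carrier of prenylated proteins, had 4 tested probes with changes from -0.01 to 0.27 and 0 called. Its brightest probe read 12.08, 12.06 and 11.999 in Vldlr KO, against 11.995, 12.05 and 12.12 in wild-type retinas. The next one read 11.24, 11.17 and 11.18 in Vldlr KO, against 11.02, 11.05 and 10.96 in wild-type retinas and another 10.72, 10.59 and 10.63 in Vldlr KO, against 10.48, 10.42 and 10.22 in wild-type retinas. On both of those the groups did not overlap, with changes of 0.19 (adjusted p = 0.678) and 0.27 (adjusted p = 0.557). Unc119, a carrier of myristoylated proteins such as rod transducin, changed by -0.12 (SE 0.241, adjusted p = 0.888) on its brightest probe, whose 95% interval ran from -0.66 to 0.43, and by 0.0037 on the other. Tulp1, a photoreceptor protein needed for protein transport to the outer segment, read 12.50, 12.52 and 12.72 in Vldlr KO, against 12.46, 12.36 and 12.26 in wild-type retinas. Its groups did not overlap, for a change of 0.22 (SE 0.164, adjusted p = 0.647). The dimmer Tulp1 probes changed by 0.14 and -0.13. The single probe of Rp2, the GTPase-activating protein of Arl3, was detected on 0 arrays.

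Counted over all roles, the groups did not overlap on 7 of the 58 probes with higher values in Vldlr KO, where 9.28% of all tested probes did so, and on 5 with lower values, where 8.84% did. The 7 were 2 probes of Pde6d and 1 each of Bbs4, Ift20, Ift81, Ift88 and Tulp1, and the 5 were 1 each of Arl3, Mkks, Ift46, Ift52 and Rpgrip1l. Of the 5, those of Mkks and Ift46 qualified for testing only through the wild-type arrays. None of the 7 was past the test.

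The arrays themselves differed over the list. KO3 was the highest array for 20 of the 58 probes (34.5%), against 18.3% of all tested probes, and WT3 was the highest for 15 (25.9%), against 20.3%, and the lowest for 16 (27.6%), against 30.0% of all tested probes. The median deviation of the 58 probes from their own means was 0.01, -0.08 and 0.10 on the Vldlr KO arrays and -0.04, 0.01 and 0.06 on the wild-type arrays. The median SD between arrays was 0.169 in Vldlr KO and 0.242 in wild-type retinas, close to the 0.185 and 0.264 of all tested probes.

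**Figure D5:**
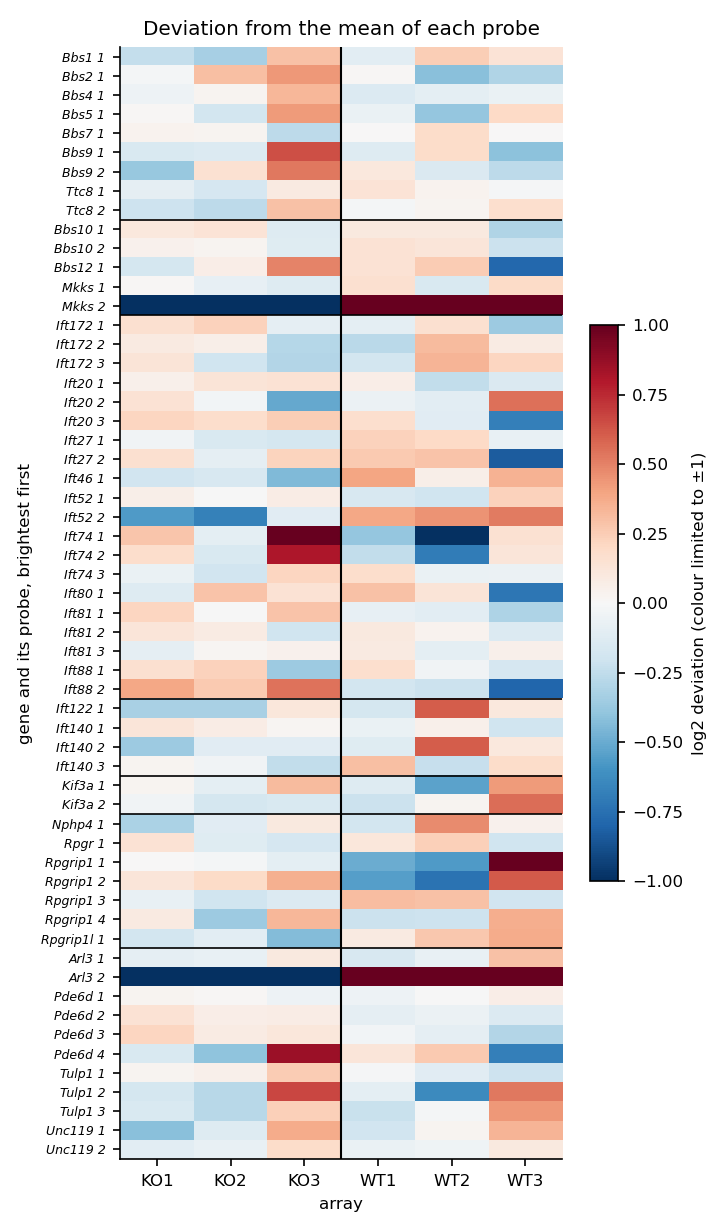
Deviation of each tested cilium probe (rows, by gene with the brightest first and lines between the roles) from its mean over the 6 arrays (columns, Vldlr KO left of wild-type), in log2 units with the colour limited to ±1. The Arl3 and Mkks rows that were called split by group, and most other rows vary between single arrays, with KO3 the highest array in 20 of 58 rows.

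Further genes of the pathway were counted from a list of 61 that holds other IFT subunits, dynein-2, transition zone proteins, ciliopathy genes and the RFX factors. Of these 56 had a probe and 45 were tested by their brightest probe, with 2 called lower, 0 called higher, 43 not called and a median change of 0.0031. Over all named genes, 1.62% were called lower and 0.667% higher by their brightest probe. Spata7, a protein of the connecting cilium that binds Rpgrip1, was read by a pair of probes, and both were above background on no knockout array and on all wild-type arrays. Both thus qualified for testing only through the wild-type arrays. The brighter read 4.65, 4.39 and 4.45 on the Vldlr KO arrays, against 6.56, 5.94 and 6.98 on the wild-type arrays, and fell by 1.998 (SE 0.259, adjusted p = 0.00361), at least 3.27-fold lower. The dimmer fell by 1.64 (SE 0.181, adjusted p = 0.00150), at least 2.54-fold lower, so that here the probes moved alike. Both folds are bounds on the measured means by the detection limit only. Both calls were lost when raw signal was only median-centred, with changes of -1.06 and -0.83 (adjusted p = 0.0864 and 0.0537). They were also lost on the authors' normalized table, where the changes were -2.13 and -1.69 (adjusted p = 0.126 and 0.0539). Cep164, a protein of the distal appendages of the basal body, read 6.52, 6.98 and 7.12 in Vldlr KO, against 7.66, 8.21 and 8.28 in wild-type retinas. It fell by 1.18 (SE 0.236, adjusted p = 0.0394), and this call was lost without KO1, KO2, KO3, WT2 or WT3, each left out alone, with changes of -1.31 to -1.01 and adjusted p-values of 0.0700 to 0.181 without them.

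Markers of other cells were measured beside these genes, each by its brightest probe. Of all named genes, 0.667% were called higher and 1.62% lower in that way. A motile cilium list, for cells that do not belong to the neural retina, had 5 tested genes of 12 and summed to 292 to 472 intensity units in Vldlr KO and 204 to 275 in wild-type retinas. Pifo rose, the other 4 were not called, and Dnah5 and Hydin were detected on 0 arrays. Lens genes summed to 3015 to 51915 units in Vldlr KO and 1374 to 7926 in wild-type retinas, with 0 of 14 called. KO1 was the highest array on each of these lens genes. On Crygd it read 13.38, against 9.07 and 8.39 on KO2 and KO3 and 6.31 to 10.18 on the wild-type arrays. Microglial genes summed to 590 to 615 units in Vldlr KO and 814 to 1092 in wild-type retinas, with Fcer1g and Lyz2 among 11 tested genes called lower. Lists for bipolar cells, amacrine and ganglion cells, Mueller glia, pigment epithelium and erythrocytes each had 0 genes called. The summed levels of each of those lists overlapped between the groups. The part of these cells in the values of the cilium genes was not tested.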

How the data were processed

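Extraction used the RNeasy Mini Kit and labelling the Ambion Illumina TotalPrep kit, per the labels' protocols, and the arrays were read out with GenomeStudio, per the submitters' processing notes (version not given in the sources used here). Non-normalized probe intensities, linear in scale, are the values the authors deposited. Beside each stands its detection p-value, per the file headers. The normalized intensities that the authors deposited equal these minus 1 constant per array (57.1 to 69.2), with no scaling between arrays, and served as an alternative. No column of sample values was left out.

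Intensities were corrected and normalized here with neqc of limma (3.58.1, R 4.3.3), which estimates background through the detection p-values. It adds 16 as an offset before quantile normalization and log2, so that changes of dim probes are compressed. Probes with a detection p under 0.05 on at least 3 of 6 arrays were fitted (lmFit and eBayes, group as the only term, 2-sided), every probe on its own, with Benjamini-Hochberg adjustment over all 19921. By the platform annotation, 34885 probes carried 1 symbol, 18 carried several and 10378 carried none. Entrez identifiers of 34807 matched a RefSeq table (GRCm38.p6), with 0 symbols changed, and promoters were those of RefSeq on the same build. The brightest probe has the highest mean level over the 6 arrays. Where a probe was above background on no knockout array, its fold is a bound, the wild-type mean against, per knockout array, the higher of the lowest detected signal and the probe's own. Such a bound covers the detection limit only, not the spread between arrays or the choice of normalization.

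The members and all gene lists were chosen with earlier results of these data known. Full values are given for genes with a called probe, for genes whose brightest probe had groups that did not overlap and an unadjusted p under 0.05, for genes whose probes' changes differed in sign and by over 0.5, for the member with the greatest change in a role with none of these, for other cilium genes that were called and for Vldlr. Values of further members were added after they were seen. The fit was tested on simulated data. Alternatives were other normalizations, offset, filters, 1 probe per gene, array weights, thresholds, a variance fitted with trend and robustly, leaving out arrays and the sample title's number as a block. Within groups, arrays correlated at 0.960 to 0.991 over probes, and 0 pairs held identical values. Figures were drawn with matplotlib 3.10.9 in Python 3.11.15.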

Additional observations from a re-analysis of the deposited data

How the results depend on the processing

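The called Arl3 and Mkks probes kept their call under each of the 18 alternatives that held them. Of these, an adjusted p under 0.10 and an added 1.5-fold limit could not have removed either call. Cilium probes called higher numbered 0, except 1 without wild-type replicate 3 (0 to 1 over the arrays left out in turn). Fitted with 1 probe per gene, 0 were called lower, since that fit holds neither probe. Leaving out single arrays gave 2 to 3 lower calls and a median change of -0.04 to 0.02. Median-centring of raw signal moved that median to 0.12, against 0.08 over all tested probes. Vldlr lost its call under median-centring (-1.01, adjusted p = 0.0631), on the authors' normalized table (-1.15, adjusted p = 0.125) and without Vldlr KO replicate 1 and wild-type replicate 3 together (-1.001, adjusted p = 0.0694). Among single leave-outs the call was lost without Vldlr KO replicate 1 or 2 and kept in the others. Over all single leave-outs the Vldlr change spanned -1.26 to -1.06. Other cilium genes numbered 0 under median-centring and on the authors' table, 1 with no filter, 1 without both of those arrays and 1 to 2 in single leave-outs, against 2. The sign of probes near 0 turned. It turned for the brightest Arl3 probe under median-centring (0.12), on the authors' table (0.022), in single leave-outs (-0.13 to 0.10) and without both arrays (0.13), and for the dimmest Ift74 probe (0.0015 and 0.10 under these normalizations, -0.14 to 0.056 in single leave-outs). It also turned for the brightest Kif3a probe in single leave-outs (-0.070 to 0.41), for the brightest Rpgrip1 probe (0.034 median-centred, 0.29 with array weights, -0.38 to 0.50 in single leave-outs, 0.48 without both arrays) and for its dimmest (-0.095 with array weights, -0.11 to 0.23 in single leave-outs). The cause was not tested. Over all tested probes 435 were called, 29.9% of them higher, against 223 on the authors' table, 271 median-centred, 920 with array weights (41.1% higher) and 234 to 499 in single leave-outs (17.5% to 28.9% higher). Title numbers 4 and 5 occur in both groups, but arrays sharing a number did not deviate together (r = -0.02 and -0.27 over probes), so the numbers were not taken to pair samples. The highest correlations were 0.28 for KO1 with WT1, 0.31 for KO2 with WT2 and 0.36 for KO3 with WT3, which no label pairs. The fit with group as the only term treats all arrays as independent, and no fit with these pairs was made. With the title number as a replicate block 282 probes were called, 2 of them lower cilium probes, with Vldlr at -1.004 (adjusted p = 0.113), 1 other cilium gene, and the brightest Arl3 and Rpgrip1 probes at 0.13 and 0.48. Numbers 2 and 6 occur once each, on KO1 and WT3, so these arrays do not bear on the change in that fit. The change rests on the remaining arrays, as when both are left out together, so this is not a separate check. Dim probes near background, such as those of Ift46, Mkks and Ift74, carry bounds or compressed changes, and 22 of 84 cilium probes were detected on 0 arrays.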
